A study of Mus musculus with 30 samples.

Results

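In mouse 3T3-L1 pre-adipocytes, a fibroblast line that becomes fat cells under hormone treatment, 1485 regions were each listed as a binding region of exactly 7 or exactly 8 of 9 transcription factors. They were 4.28% (exact 95% interval 4.07 to 4.49) of the 34724 regions listed for any of the 9, and split into 603 regions with 8 factors and 882 with 7. They were chosen by the lists themselves: an interval counted when identical coordinates on chromosomes 1 to 19 or X stood in 7 or 8 of the 9 lists. Which factor was missing is therefore described below without any test. Just outside these limits lay 504 regions listed for all 9 factors and 1616 listed for 6.

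ChIP-seq, which sequences the DNA recovered with an antibody against a chromatin protein, was used for VDR, RXR, KLF4, KLF5, cJun, JunB, FOSL2, ATF2 and ATF7. All libraries came from post-confluent 3T3-L1 cells, with no transfection in their labels, taken 4 h after addition of 1 μM dexamethasone, 0.5 mM isobutylmethylxanthine, 1 μg/mL insulin and 10% fetal calf serum. Each factor had 1 library and its own antibody, 8 of them from 1 vendor and the KLF5 antibody a gift, so no value below has a replicate. Untreated cells were not analysed here. Every interval was 400 bp long, and the lists held positions alone, with no signal, read count or score. The depth of the libraries is thus unknown, and a factor that is missing from a region is one that was not listed there, which a weak or poorly sequenced signal can also give.

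The AP-1 subunits cJun, JunB and FOSL2 are leucine-zipper (bZIP) proteins that bind DNA as pairs; FOSL2 is a Fos-type subunit that pairs with Jun-type partners. ATF2 and ATF7 are closely related leucine-zipper proteins that can pair with each other and with Jun proteins. KLF4 and KLF5 are zinc-finger factors that recognise GC-rich sequence and act early in fat-cell differentiation, and VDR, the vitamin D receptor, binds DNA with RXR, the retinoid X receptor. Regions crowded with many factors are known as hotspots and are often strong enhancers.

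A longer list has more chances to include a region, so missing factors were set against list length. KLF4, cJun and FOSL2 had the shortest lists, with 5875, 6175 and 6284 intervals on these chromosomes, and ATF7 followed with 7375. JunB had 10082, ATF2 11547, VDR 11794, RXR 12082 and KLF5 17120. If the lists were independent, the share of 8-factor regions that miss a given factor would be proportional to the odds that an interval is absent from its list. The expected counts below follow from that rule. They add up to the same total as the observed counts, so a factor missing less often than expected leaves others above.

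Among the 603 regions with 8 factors, JunB and KLF5 were almost never the missing factor, and cJun, ATF7, KLF4 and FOSL2 made up most gaps. JunB was the missing factor at 4 regions (0.663%, exact 95% interval 0.181 to 1.69), where list length gave 54.5. The lists of ATF2, VDR and RXR were all longer than that of JunB, yet each of these factors was missing more often than JunB. KLF5, with the longest list, was also missing at 4 regions, against 22.9 expected. RXR was missing at 13 regions (2.16%, 1.15 to 3.66) against 41.8 expected. For these 3 factors the exact interval lay below the expected share. Such intervals cover counting error alone and take regions as independent. Setting them beside the expected share is description and not a test, with 1 library per factor.

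The most frequent gap was cJun, missing at 143 regions (23.7%, exact interval 20.4 to 27.3), where list length gave 103. ATF7 was missing at 136 regions (22.6%, 19.3 to 26.1) against 82.6 expected, the highest ratio of the 9 at 1.65. KLF4, with the shortest list, was missing at 126 regions (20.9%, 17.7 to 24.4) against 109 expected, and FOSL2 at 104 (17.2%, 14.3 to 20.5) against 101. ATF2 was missing at 41 regions against 44.7 expected and VDR at 32 against 43.3. For KLF4, FOSL2, ATF2 and VDR the expected share lay inside the exact interval. cJun and FOSL2 had lists of nearly equal length, yet cJun was missing 143 times and FOSL2 104 times. In all, 113 of the 603 regions would have to miss another factor to match the expected split.

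**Figure D1:**
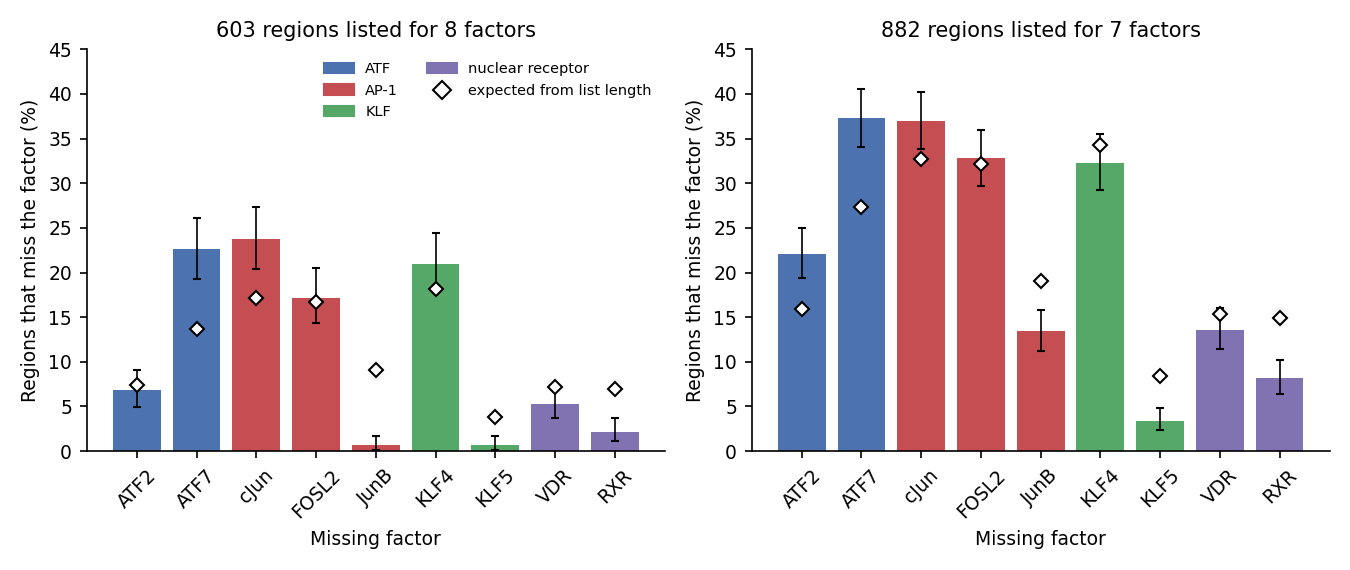
Bars give the percentage of regions listed for 8 factors (left) and for 7 factors (right) that miss each factor, with exact 95% intervals; open diamonds give the percentage expected from list length, and colours mark factor families. JunB and KLF5 are missing at 0.663% of 8-factor regions each, far under their diamonds, while ATF7 and cJun stand above theirs in both panels.

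These ratios depend on what list length is counted over. With each list counted over the regions that hold 5 or more factors, the expected number for ATF7 rose to 149 and its ratio of observed to expected fell to 0.911, while that for ATF2 fell from 0.917 to 0.46. The ratio then was 1.98 for cJun, 1.64 for KLF4, 1.28 for VDR, 0.705 for RXR, 0.444 for KLF5, and 0.136 for JunB. JunB, KLF5 and RXR thus stayed below expectation and cJun above it, although the expected shares of KLF5 and RXR then lay inside their exact intervals. KLF4 moved from near expectation to above it, with 76.8 regions expected and its exact interval above the expected share. The ratio for FOSL2 fell from 1.03 to 0.778, with 134 regions expected and its exact interval below the expected share. Of the expectations tried for ATF7, this was the one that turned its excess.

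The 882 regions with 7 factors had a similar order of missing factors, with JunB as the exception. ATF7 was missing at 329 regions (37.3%, exact interval 34.1 to 40.6), against 241 expected. cJun was missing at 326 regions against 288 expected, FOSL2 at 289 against 284, and KLF4 at 285 against 302. ATF2 was missing at 195 regions (22.1%, 19.4 to 25) against 140 expected. At the low end were VDR with 120 regions against 136 expected, RXR with 72 against 131 and KLF5 with 30 against 74.4. JunB was missing at 118 regions (13.4%, 11.2 to 15.8) against 167 expected, far more often than its 4 gaps among 8-factor regions.

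JunB was missing at 7-factor regions mainly together with its relative cJun. Of the 118 regions without JunB, 94 also lacked cJun (79.7%, exact interval 71.3 to 86.5), and the other 24 were spread over 7 partners, with 12 of them lacking FOSL2. The converse did not hold: cJun was missing without JunB at 232 of the 326 regions with 7 factors that lacked it. If pairs formed in proportion to the single gaps seen among 8-factor regions, cJun and JunB would both be missing at 3.42 regions. That number rests on the 4 JunB gaps there. By the same rule ATF7 and FOSL2 would both be missing at 84.6 regions, against 94 observed, and ATF2 and ATF7 at 33.3, against 90. A 7-factor region without JunB was in most cases one without either Jun protein, while most regions without cJun kept JunB.

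In the other related pairs, too, 1 factor was missing alone more often than its relative. The rarer gap was shared less often than the 79.7% seen for JunB. KLF4 was also missing at 53.3% of the KLF5 gaps, ATF7 at 46.2% of the ATF2 gaps and VDR at 34.7% of the RXR gaps. KLF4 was missing while KLF5 was listed at 269 of the 7-factor regions, KLF5 while KLF4 was listed at 14, and both were missing at 16. The KLF5 list was also far the longer one. ATF7 was missing alone of the ATF pair at 239 regions, ATF2 alone at 105, and both at 90. VDR was missing with RXR listed at 95 regions, RXR with VDR listed at 47, and both at 25, although the lists of these receptors had nearly the same length (11794 and 12082). Among 8-factor regions VDR was again the receptor more often missing, at 32 regions against 13.

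Over the 36 possible pairs, 3 accounted for 278 of the 882 regions (31.5%). ATF7 and FOSL2 were both missing at 94 regions (10.7%, exact interval 8.70 to 12.9), where list length gave 46.7. cJun and JunB were both missing at another 94 regions, against 31.4 expected, and these regions lay on all 20 chromosomes. ATF2 and ATF7 were both missing at 90 regions (10.2%, 8.29 to 12.4) against 20.7 expected, a ratio of 4.35 and the highest of the 36. VDR and RXR were both missing at 25 regions against 10.1 expected, a ratio of 2.47, and ATF2 and FOSL2 at 52 against 25.3. KLF4 and VDR were both missing at 44 regions against 26.5. KLF4 and KLF5 were both missing at 16 against 14.0, which did not exceed the expected number beyond its exact interval.

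In total 10 pairs lay above the number expected from list length and 26 below. ATF2 and KLF5 were never the missing pair, where list length gave 5.74 regions and where 0 of 882 has an exact 95% upper limit of 0.417%. Another 15 pairs were missing at 1 to 5 regions, and all of them but ATF2 with VDR joined a JunB, KLF5 or RXR gap with a gap in another family. JunB was missing with ATF7 at 3 regions against 25.2 expected, with KLF4 at 5 against 33.4 and with ATF2 at 1 against 13.6. FOSL2 and RXR were both missing at 2 regions against 23.6, and FOSL2 and VDR at 6 against 24.5. cJun and KLF4 were both missing at 62 regions, close to the 63.1 expected, and cJun and FOSL2 at 74 against 58.2.

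**Figure D2:**
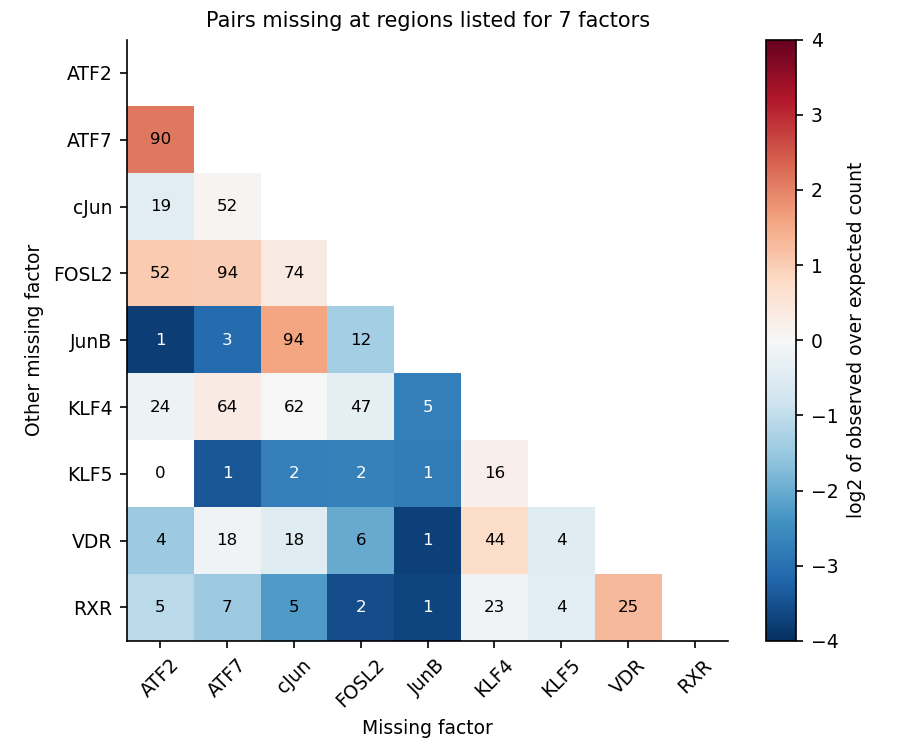
Each cell gives the number of 7-factor regions that miss the 2 factors named on the axes, and its colour the log2 ratio of that number to the number expected from list length. The cells for ATF2 with ATF7 (90 regions), cJun with JunB (94) and ATF7 with FOSL2 (94) are red, most JunB, KLF5 and RXR cells outside their families are blue, and the cell with 0 regions (ATF2 with KLF5) and the unused upper part are white.

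The pairs were also set against how often each factor was missing at all. With the 9 single counts at 7-factor regions held as observed, pairs formed without regard to each other would give 42.9 regions for ATF2 and ATF7, 24.5 for cJun and JunB, and 68.4 for ATF7 and FOSL2. VDR and RXR would then share 4.59 gaps and KLF4 and KLF5 4.99, and the observed 25 and 16 were 5.44 and 3.20 times as many. Pairs of a KLF factor and a receptor also lay above this expectation. KLF4 was missing with VDR at 44 regions against 21 and with RXR at 23 against 12.2. KLF5 was missing with VDR at 4 against 1.87 and with RXR at 4 against 1.09. ATF7 and cJun turned from near expectation by list length (52 regions against 47.7) to below it, at 0.652 of the 79.8 regions so expected. ATF2 and cJun were likewise missing together at 19 regions against 42.4.

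Gaps within a family were more frequent than list length gives. With the families ATF (ATF2, ATF7), AP-1 (cJun, FOSL2, JunB), KLF and nuclear receptor, both missing factors were of 1 family at 311 of 882 regions (35.3%, exact interval 32.1 to 38.5), where list length gave 18.7%. FOSL2 and JunB were the only within-family pair below expectation, at 12 regions against 30.8. The excess of 16.5 points did not hold for every choice of lists. Among regions that missed exactly 2 of the remaining 8 factors, it was -2.99 points without the ATF2 list, -1.45 without the ATF7 list and 48.1 without the FOSL2 list. Without ATF2 or ATF7 the ATF family has 1 member, so its pair can no longer be counted. Leaving out a list also lets in regions with 6 of the 9 factors, of which 681 missed exactly ATF2, ATF7 and FOSL2.

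ATF2, ATF7 and FOSL2 were the most frequent set of 3 missing factors at 6-factor regions, and were chosen for description after that was seen. All gaps lay among these 3 factors at 281 of the 603 regions with 8 factors (46.6%, exact interval 42.6 to 50.7; 37.8% expected from list length), at 236 of the 882 with 7 (26.8%, 23.9 to 29.8; 10.5% expected) and at 681 of the 1616 with 6 (42.1%, 39.7 to 44.6; 1.6% expected). At 8-factor regions the excess reversed with list length counted over regions with 5 or more factors, a set that includes these regions. That list length gave 89.1 regions for ATF2, 149 for ATF7 and 134 for FOSL2, each above the observed number. The share of regions without FOSL2 rose from 17.2% at 8 factors to 32.8% at 7 and 64.4% at 6, and that without ATF2 from 6.80% to 22.1% and 56.2%. The share without cJun went from 23.7% to 37.0% and then 32.7%, and that without KLF4 from 20.9% to 32.3% and 33.4%. The mean of the 9 shares rises by construction as the number of factors falls, but the share without cJun was lower at 6 factors than at 7.

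The rows of the lists followed a common order that was not that of the genome. In all 36 pairs of lists the shared intervals stood in the same order, so the lists could be merged into 1 order of 34726 rows. The rank of 1291 of the 1485 regions was then fixed exactly, and no other could move by more than 14 rows. No source used here says what the authors sorted by. Intervals with many factors stood early: the first 10% of the order held a mean of 4.69 factors per interval and the last 10% held 1.2. Position is given below as a percentage, from 0 at the first row to 100 at the last.

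The 8-factor regions had a median position of 11.5%, with quartiles at 4.96% and 21.5%, and the 7-factor regions one of 15.5% (7.49% and 28.7%). They lay between regions with all 9 factors, at 6%, and those with 6, at 18.4%. The first 10% of the order held 278 of the 8-factor regions (46.1%, exact interval 42.1 to 50.2) and 295 of the 7-factor regions (33.4%, 30.3 to 36.7). The medians of 8- and 7-factor regions stood in this order on 17 of 20 chromosomes, and the ranges overlapped widely.

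Position differed by the missing factor. Regions that missed a leucine-zipper factor stood early, with a median of 7.78% for cJun (quartiles 3.67% and 15.9%, 143 regions), 8.83% for FOSL2 (4.36% and 15.8%) and 8.86% for ATF7 (3.63% and 18.3%). Regions that missed KLF4 had a median of 16.9% (10.3% and 27.3%, 126 regions), those that missed VDR 15.9% (11.4% and 25.9%, 32 regions) and those that missed RXR 20.7% (15.9% and 29.4%, 13 regions). ATF2 was closer to the second group than to its relatives, with a median of 14.9% (5.12% and 24.1%, 41 regions). The 4 regions without JunB lay between 4.18% and 39.4%, and the 4 without KLF5 between 5.06% and 48.5%.

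Taken as groups, the 428 regions with 8 factors that missed a leucine-zipper factor had a median position of 8.72%, against 16.6% for the 175 that missed a KLF factor or a receptor. The first group was the earlier on 18 of the 19 chromosomes that held both. In the first 10% of the order lay 55.1% of the first group (exact interval 50.3 to 59.9) and 24% of the second (17.9 to 31.0). The same was seen in the rows of the single lists, which share the order and so give no independent evidence. Regions without KLF4 stood later than the other 8-factor regions in 8 of 8 lists, at medians of 23.7% to 31.8% of each list's own rows against 14.1% to 21.3%. Regions without cJun stood earlier in 8 of 8 lists, at 12.0% to 24.5% against 18.5% to 31.6%. Regions without ATF7 and those without FOSL2 were also the earlier ones in 8 of 8 lists, and those without VDR the later ones in 8 of 8.

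**Figure D3:**
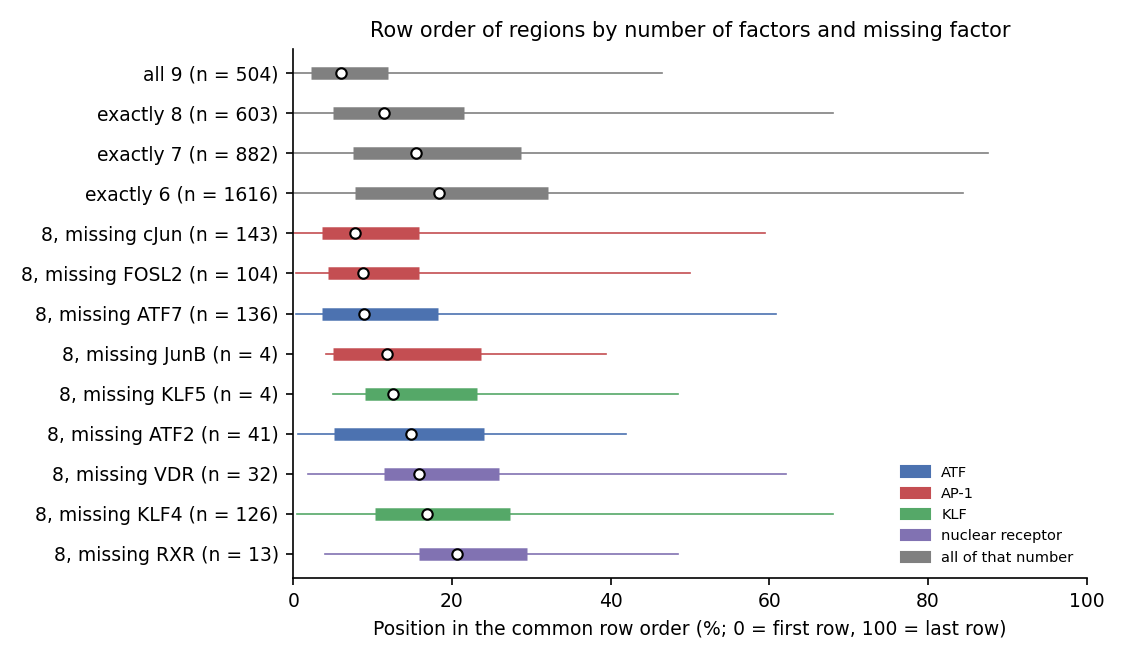
Horizontal bars span the quartiles, thin lines the full range and circles the median of the position in the common row order, where 0 is the first row and 100 the last. The upper rows show all regions with 9, 8, 7 and 6 factors in grey; below them, 8-factor regions without cJun, FOSL2 or ATF7 have medians under 9% and those without VDR, KLF4 or RXR medians from 15.9% to 20.7%.

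Among 7-factor regions the same groups differed. The 491 regions that missed a pair of leucine-zipper factors had a median position of 10.5%, the 275 that missed a leucine-zipper factor and another factor 23.4%, and the 116 that missed a pair of KLF factors or receptors 24.6%. By pair, ATF7 with FOSL2 stood at 8.18%, cJun with FOSL2 at 8.91%, cJun with JunB at 9.27% and ATF2 with ATF7 at 12.4%. KLF4 with VDR and ATF7 with KLF4 each stood at 28.0%, FOSL2 with KLF4 at 23.2%, VDR with RXR at 20.4% and cJun with KLF4 at 17.8%. Of the 94 regions without ATF7 and FOSL2, 62.8% lay in the first 10% of the order, against 5 of the 44 regions without KLF4 and VDR.

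When the members were divided into 4 equal blocks along the row order, the share of gaps changed along the order for several factors. KLF4 was missing at 16 of the 151 earliest 8-factor regions (10.6%), then at 12.6%, 28% and 32.5% of the later blocks. ATF7 went from 29.1% to 24.5%, 20% and 16.6%, FOSL2 from 19.9% to 22.5%, 17.3% and 9.27%, and cJun from 29.1% to 30.5%, 16% and 19.2%. At 7-factor regions KLF4 went from 13.6% in the first block to 51.6% in the last, VDR from 4.98% to 23.5% and RXR from 0.905% to 13.6%, while FOSL2 went from 44.3% to 24% and JunB from 19.9% to 6.33%.

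The lists themselves thinned out unequally along the order. With the order divided into 10 equal blocks, 51.9% of all common intervals in the first block were in the KLF4 list, 23.2% in the third and 2.97% in the last; for VDR the values were 67.3%, 47.9% and 10.4%, and for RXR 65.9%, 49.3% and 9.71%. ATF2 went from 50.6% to 37.7% and 27.1%, and ATF7 from 40.4% to 25.7% and 13.5%. cJun went from 36.6% to 23% and 5.91%, and FOSL2 from 32.3% to 23.3% and 10.1%. JunB went from 48.3% to 35% and 11.5%, and KLF5 from 76.1% to 59.3% and 28.4%. The cJun list thus also thinned strongly, although regions without cJun stood early. The part of this thinning in the order of the missing factors was not tested. List length was also counted within each of 5 equal blocks of the order. By that expectation 8-factor regions missed KLF4 at 1.55 times the expected number, VDR at 0.996 times and FOSL2 at 0.852 times. The ratio was 1.46 for ATF7, 1.37 for cJun, 0.72 for ATF2, 0.417 for RXR, 0.2 for KLF5 and 0.0639 for JunB.

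**Figure D4:**
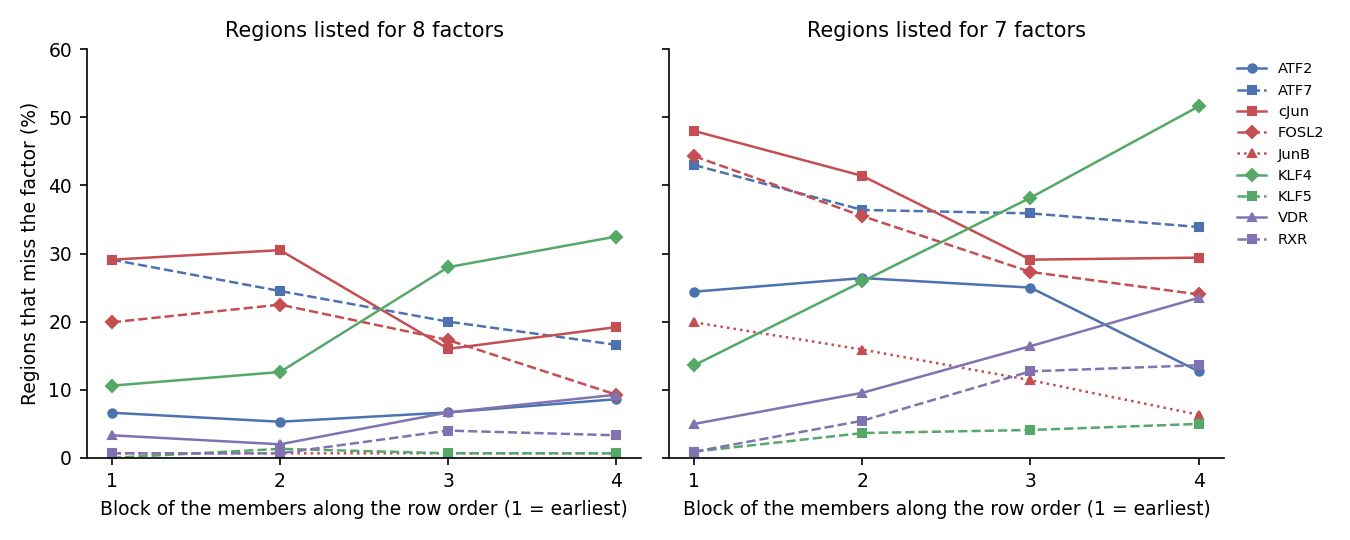
Lines give the percentage of 8-factor regions (left) and 7-factor regions (right) that miss each factor in 4 successive equal blocks of those regions along the row order, with block 1 the earliest. The KLF4 line rises from 10.6% to 32.5% on the left and from 13.6% to 51.6% on the right, and starts below and ends above the lines of cJun, FOSL2 and ATF7 on both sides.

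The neighbourhood of the regions was then described by the other common intervals whose midpoints lay within 10 kb. At least 1 such neighbour was present for 446 of the 8-factor regions (74.0%, exact interval 70.3 to 77.4) and 627 of the 7-factor regions (71.1%, 68.0 to 74.1), against 60.6% of all common intervals. The mean number was 1.92 and 1.74 neighbours, against 1.37 for all intervals and 2.06 for regions with all 9 factors. The nearest other interval lay at a median of 3212 bp from an 8-factor region and 3632 bp from a 7-factor region, against 5996 bp overall. Neighbours of 8-factor regions were themselves listed for a mean of 3.12 factors, against 2.72 for the neighbours of all intervals, and 35.2% of them had a single factor.

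By missing factor, most shares with a neighbour were alike within their intervals. They were 71.3% without ATF7 (exact interval 62.9 to 78.7), 74.6% without KLF4, 74.8% without cJun and 76.9% without FOSL2. The lowest among the larger groups was 61.0% without ATF2 (44.5 to 75.8, 41 regions). The 13 regions without RXR had the densest surroundings, with a mean of 4 neighbours, and 3 of them lay on chromosome 10; without that chromosome the mean was 2.4. The neighbours of regions without a KLF factor or receptor were listed for VDR in 34.3% of cases and for KLF5 in 56.3%, against 42.2% and 63.9% for the neighbours of regions without a leucine-zipper factor. FOSL2 went the other way, at 29.5% against 24.2%, and ATF7 was at 25.6% against 24.1%.

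The missing factor was listed close by at a minority of regions. At 181 of the 603 regions with 8 factors (30.0%, exact interval 26.4 to 33.8) the missing factor stood at another interval within 10 kb. If each factor had been as frequent there as around all common intervals that do not list it, 123 regions (20.3%) would have had it. For cJun the share was 28.7% (21.4 to 36.8), against 17.8% around all intervals without cJun. For ATF7 it was 31.6% (23.9 to 40.1) against 21%, for KLF4 27% (19.5 to 35.6) against 18.2%, and for FOSL2 25% (17.0 to 34.4) against 18.7%. ATF2 stood near 11 of the 41 regions without it (26.8%, 14.2 to 42.9), against 28% of all intervals without ATF2. The share around all intervals lay below the exact interval for cJun, ATF7 and KLF4 and inside it for FOSL2 and ATF2. The greater number of neighbours around 8-factor regions moves with these shares, and its part in them was not tested. Counted per neighbour, the missing factor was listed in 19% of cases for cJun, 25.6% for ATF7, 21.3% for KLF4, 23.7% for FOSL2 and 30.6% for ATF2. Among the neighbours of all common intervals these factors were listed, in the same order, in 17.1%, 25.6%, 19.9%, 25% and 37.8% of cases.

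Compared with 8-factor regions that did list the factor, regions that missed it were not set apart for cJun, FOSL2 and ATF7. cJun stood at another interval within 10 kb of 28.5% of the regions that listed it (24.4 to 32.8), FOSL2 near 27.7% and ATF7 near 27%, all inside the intervals of the regions that missed them. For ATF2 and VDR the share was higher where the factor was listed, at 43.4% against 26.8% and 46.9% against 34.4%, with exact intervals that overlapped in both cases. KLF4, with the shortest list, stood near 34.2% of the regions that listed it (29.9 to 38.6). It stood near 27% of those that did not (19.5 to 35.6), and the exact intervals overlapped.

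Of the 3 rarest gaps, JunB and RXR were the ones with the factor nearby more often than regions that listed it. The exact intervals overlapped in both cases. JunB stood within 10 kb at 4 of 4 regions that missed it (exact interval 39.8 to 100). The share was 38.1% (34.2 to 42.1) of 8-factor regions with JunB and 26.5% of all intervals without it. The nearest JunB interval lay 899 bp to 2.24 kb from the 4 regions. RXR stood within 10 kb at 10 of the 13 regions that missed it (76.9%, exact interval 46.2 to 95), against 27.1% around all intervals without RXR and 48.0% (43.9 to 52.1) around 8-factor regions with RXR. Without chromosome 10 this was 7 of 10 regions. The 13 regions had many neighbours, and single neighbours were listed for RXR less often than those of regions with RXR, at 16 of 52 (30.8%, 18.7 to 45.1) against 43.7%. KLF5 stood near 1 of its 4 gaps, against 60.6% of 8-factor regions with KLF5 and 34.8% of all intervals without it, and VDR near 11 of 32 (34.4%), against 27.8%. The nearest interval of the missing factor lay at a median of 4.75 kb for RXR, 1.41 kb for JunB, 19 kb for VDR and 20.4 kb for KLF5. It was 24.0 kb for cJun, 30.2 kb for ATF2, 32.9 kb for ATF7, 39.4 kb for FOSL2 and 43.4 kb for KLF4. From all common intervals that do not list the factor the medians were, in the same order, 33.1, 32.4, 31, 21.1, 61, 32.2, 50.5, 63.1 and 62.8 kb. From 8-factor regions that list it they were 11.1, 17.1, 11.8, 5.4, 30.2, 13.7, 30.3, 33.2 and 21.5 kb.

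**Figure D5:**
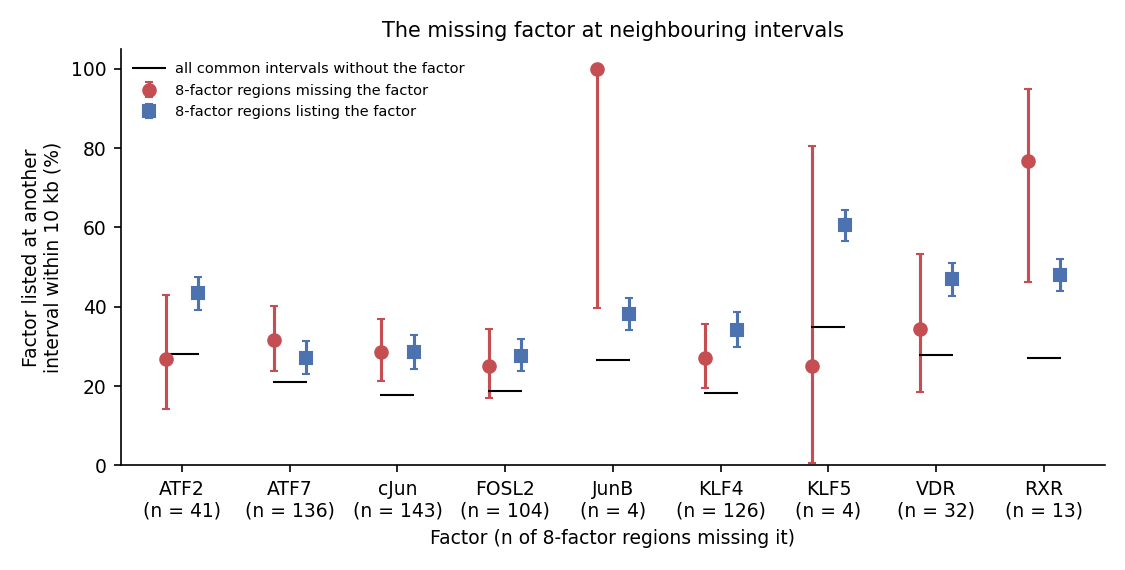
For each factor, circles give the percentage of 8-factor regions missing it, and squares that of 8-factor regions listing it, with the factor at another interval within 10 kb; bars are exact 95% intervals and dashes give all common intervals without the factor. JunB (4 of 4 regions) and RXR (10 of 13) stand highest among the circles, while cJun, FOSL2 and ATF7 have circles and squares at nearly the same height.

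At 7-factor regions too, missing factors stood nearby at a minority of sites. Of the 94 regions without cJun and JunB, JunB stood within 10 kb at 32 (34%) and cJun at 22 (23.4%), and both at 21. Around all common intervals that do not list the factor, the shares were 26.5% for JunB and 17.8% for cJun. Of the 90 regions without ATF2 and ATF7, ATF2 stood near 29 (32.2%), ATF7 near 20 (22.2%) and both near 18. The shares around all intervals without the factor were 28% for ATF2 and 21% for ATF7. At least 1 of the missing factors stood near 29 of the 94 regions without ATF7 and FOSL2 (30.9%). For the 25 regions without VDR and RXR this was 8 (32.0%). No share around all intervals was computed for at least 1 factor of a pair. Singly, ATF7 stood near 19.1% and FOSL2 near 23.4% of the 94, against 21% and 18.7% around all intervals without the factor. VDR stood near 20% and RXR near 28% of the 25, against 27.8% and 27.1%. Whether the shares at 7-factor regions differ from those around all intervals was not tested. Another interval overlapped 27 of the 603 regions with 8 factors (4.48%) and 51 of the 882 with 7 (5.78%), close to the 4.98% of all common intervals, and the overlapping interval held a missing factor in 8 and 14 of these cases. A missing factor thus stood in an overlapping interval at few members.

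Some members are given by position, in the mouse build mm9. The first 8-factor region along the genome without cJun lay at chr1:39811404-39811803, at 7.55% of the row order and with 3 neighbours within 10 kb. The first without ATF7 was chr1:40236370-40236769, at 24.2%, with 4 neighbours, of which the nearest lay 541 bp away. The first without FOSL2 was chr1:45088415-45088814 at 5.59%, and the first without KLF4 was chr1:53997031-53997430 at 41.9%. Those for ATF2, RXR and VDR were chr1:63613586-63613985 at 17.1%, chr1:94696247-94696646 at 4.00% and chr1:121022084-121022483 at 62.1%. No gene annotation or sequence of this build was used here, so the genes at these positions are not named.

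The 8 regions whose only gap was JunB or KLF5 can be given in full. Those without JunB were chr4:83620454-83620853, chr10:116646668-116647067, chr15:101973591-101973990 and chr19:3333178-3333577. They stood at 39.4%, 4.18%, 18.4% and 5.26% of the row order. Those without KLF5 were chr1:138581864-138582263, chr2:79823365-79823764, chr7:107123118-107123517 and chr19:46674991-46675390, at 5.06%, 48.5%, 10.5% and 14.8%. Of the regions without KLF5, 3 had no other interval within 10 kb, while each of those without JunB had between 1 and 6.

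Among 7-factor regions, the first without cJun and JunB was chr1:39953400-39953799 at 11.6% of the order, and the first without ATF2 and ATF7 was chr1:14300130-14300529 at 39.7%. The first without ATF7 and FOSL2 was chr1:34101503-34101902 at 11.4%, and the first without VDR and RXR chr1:89447593-89447992 at 33.9%. The earliest 8-factor region of the order was chr10:116640654-116641053, which missed cJun. It stood at row 14 of the RXR list, row 15 of the KLF4 list and row 28 of the ATF2 list. The latest was chr19:23938558-23938957, which missed KLF4 and stood at 68.0%. The member with the most neighbours, 14 within 10 kb, was chr10:116555292-116555691, another region without KLF4, at 56.4%.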

How the data were processed

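The authors deposited, for each of 9 factors, a list of 400 bp intervals with chromosome, start and end and no other column. The build mm9 and the tools HOMER, Bowtie and FastQC are named, per the submitters' processing notes. Tool versions and roles, the peak threshold, the making of the shared interval set and the sorting of rows are not stated in any source used here. Of 30 labelled samples, 21 were not analysed here. Only chromosomes 1 to 19 and X entered, which left out 2 intervals on chromosome Y; identical coordinates defined a shared region.

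The members, families and measures were chosen with earlier results of these data known. With 1 library per factor no test was made. The share expected to miss factor f was (1-p)/p divided by its sum over factors, where p is the list's share of the common intervals, and for pairs the product of both weights. The 95% intervals of shares are exact (Clopper-Pearson), stand for counting error alone and take regions as independent. The row order merged all lists; a region's position is the middle of the ranks it can take. Neighbours were other common intervals with midpoints within 10 kb. Regions were named by rule: the first along the genome, chromosome 18 left out, for each missing factor, and for the 3 most frequent pairs and the 3 pairs with the highest ratio among those with at least 5 expected; and the member with most neighbours. The remaining JunB and KLF5 gaps and the ends of the row order were added after their values were seen. Genes were not named because the annotation at hand was of another build. The calculations were tested on simulated lists. Python 3.11.15, numpy 2.4.6, pandas 2.3.3, scipy 1.17.1 and matplotlib 3.10.9 were used.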

Additional observations from a re-analysis of the deposited data

How the results depend on the processing

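Counting a factor as listed where any of its intervals overlapped the region gave 642 regions with 8 factors and 954 with 7, and leaving out chromosome 10 gave 564 and 816. Weights of 1-p in place of odds raised the number of 8-factor regions off the expected split from 113 to 205; list length over regions with 5 or more factors, and within 5 equal blocks of the row order (an alternative chosen after seeing the data), each gave 127. The ratio for ATF7 fell to 0.911 with list length over regions with 5 or more factors. That for KLF4 rose from 1.15 to 1.64 with the same list length, to 1.62 with weights of 1-p and to 1.55 within the 5 blocks. It was 1.16 without chromosome 10 and 1.1 with any overlap counted. The share of missing pairs of 1 family was 16.5% without the ATF2 list, 21.1% without ATF7, 25.5% without cJun, 60.8% without FOSL2, 28.4% without JunB, 43.0% without KLF4 and 31.9% without KLF5. Its excess over expectation was -2.99 points without ATF2, -1.45 without ATF7, 12.7 without cJun, 48.1 without FOSL2, 13.2 without KLF5 and 13.1 without RXR. The ATF pair cannot be counted without the ATF2 or the ATF7 list. Any further cause was not tested, nor was the part played by the 6-factor regions that leaving out a list lets in. By construction, windows of 2 kb and 50 kb changed the share of 8-factor regions with their missing factor nearby to 10.1% and 60.9%, and the shares with any neighbour to 39.8% and 95.5% (8 factors) and 37.9% and 96.3% (7 factors). In rows of the single lists the median positions were 21.5% and 28.0%, and leucine-zipper gaps still stood earlier than KLF or receptor gaps, by 11.5 points against 7.89 in the merged order. Depth is unknown, so a gap cannot be told apart from a weak signal. No paired analysis was possible because each factor had 1 library.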

Other observations

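The regions were spread unevenly over chromosomes. On chromosome 19, 5.91% of the common intervals were listed for 7 or 8 factors (exact 95% interval 4.79 to 7.19), on chromosome 6 5.85% (5 to 6.79) and on chromosome 16 5.65% (4.52 to 6.97). On chromosome 11 the share was 2.88% (2.17 to 3.74), and on the X chromosome it was 1.04% (0.421 to 2.14), or 7 of 670 intervals. The 64 regions of chromosome 2 with 8 factors missed cJun 22 times and ATF7 15 times. The 41 such regions of chromosome 5 missed KLF4 16 times and ATF7 3 times. Over all 8-factor regions the shares were 23.7% for cJun, 22.6% for ATF7 and 20.9% for KLF4. Whether gaps differed between chromosomes was not tested.

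Members near each other missed the same factor about as often as their totals give. Of the 1485 regions, 173 had another member within 10 kb. Among 23 such pairs of 8-factor regions, 5 missed the same factor (21.7%, exact interval 7.46 to 43.7; 18.9% expected from the totals). Among 66 pairs of an 8- and a 7-factor region, the gap of the first was also a gap of the second in 22 (33.3%, 22.2 to 46.0; 32.1% expected). Among 27 pairs of 7-factor regions, 1 had the same missing pair (6.70% expected). These intervals are wide, and a moderate sharing of gaps was not detectable with so few pairs.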
